A study of Mus musculus with 8 samples.

Results

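The 35 genes described here were listed together as genes of the gut mesenchyme and its matrix, and encode receptors, transcription factors and non-collagen matrix proteins. They were taken by symbol from the 18561 genes of the deposited expression table, and 35 of 35 were in it. Expression was measured in 8 libraries from the gut of mouse embryos on embryonic day 14.5, of which 5 were labelled Emb knockdown and 3 WT. Each library came from a tube of about 200 cells sorted with antibodies against CD271 and CD57 as enteric neural crest cells, which give rise to the gut's own nervous system. The way the knockdown was made, the strain and the number of embryos behind each tube are absent from the labels. The p-values therefore reflect only how far these libraries vary, and that variation may be technical.

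Mesenchymal cells fill the gut wall between the epithelium and the outer lining and are the cells through which enteric neural crest cells migrate. They respond to platelet-derived growth factors through PDGF receptors and secrete the matrix, a network of adhesive glycoproteins, proteoglycans, elastic fibres and basement membranes. Elastic fibres are built from elastin laid on fibrillin microfibrils and are crosslinked by the enzyme lysyl oxidase. Several of these genes are also active outside mesenchyme, among them CD44 and thrombospondin 1 in myeloid cells and nidogens and perlecan in the basement membranes of vessels.

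The stretches of 120 bases before the annotated transcript start are shown for 5 genes that differ in how they behaved across the libraries. Pdgfra, Twist1 and Vcan were higher in the libraries labelled knockdown 3 to 5 than in WT, Pdpn was lower, and Cd44 was highest in those labelled knockdown 1 and 2. They come from RefSeq with the build GRCm38.p6, are written 5′ to 3′ on the strand of the gene, and overlap no exon of the GENCODE M21 annotation. Capitals mark matches to the motifs listed after them, which the stretches of Pdgfra, Pdpn and Cd44 do not hold.
Pdgfra, chr5:75152131-75152250, plus strand: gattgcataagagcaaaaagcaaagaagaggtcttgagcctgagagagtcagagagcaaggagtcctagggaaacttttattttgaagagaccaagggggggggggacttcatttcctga
Twist1, chr12:33957551-33957670, plus strand: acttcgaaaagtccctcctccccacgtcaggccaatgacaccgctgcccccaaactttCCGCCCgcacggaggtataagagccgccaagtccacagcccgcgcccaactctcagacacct
Vcan, chr13:89742513-89742632, minus strand: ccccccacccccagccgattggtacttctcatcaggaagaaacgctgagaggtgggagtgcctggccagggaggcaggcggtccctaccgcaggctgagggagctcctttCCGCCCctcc
Pdpn, chr4:143299565-143299684, minus strand: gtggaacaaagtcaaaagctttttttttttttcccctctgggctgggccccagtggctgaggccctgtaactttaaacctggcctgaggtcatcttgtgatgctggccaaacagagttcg
Cd44, chr2:102901666-102901785, minus strand: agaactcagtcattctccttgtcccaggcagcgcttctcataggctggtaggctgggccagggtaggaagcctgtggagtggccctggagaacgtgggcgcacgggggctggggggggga
The Pdgfra and Vcan stretches lie inside the RefSeq span of their gene, downstream of its outermost start, and the Cd44 stretch touches that span at its end. Of the 35 genes, 23 had at least 1 promoter window in the RefSeq table, 28 windows in all. In the 250 bases before the start, on either strand, the GC box GGGCGG was found in 15 of the 28 windows, against 32.7% of 32817 windows of all genes. These 15 belonged to 13 genes, and windows of the same gene can share bases. The median GC content was 55.4% in the 28 windows, against 52.4% over all. The TATA box TATAAA was in 6 of 28, against 12.4% of all, and GGAATG, the core of a TEAD site, in 4 of 28, against 12.6%. The forkhead motif GTAAACA was in 1 of 28, against 3.16%, and the AP-1 motif TGANTCA in 0 of 28, against 6.75%. No motif overlaps another in its letters, and the matches describe these windows without showing binding.

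Total expected counts, the estimated reads per gene, lay between 20116607 and 26739154 in the libraries labelled knockdown and between 21248200 and 26959265 in WT. Emb, the targeted gene, was at 111, 115, 16.6, 9.11 and 9.65 FPKM (fragments scaled for gene length and library size) in the libraries labelled knockdown 1 to 5. In WT it was at 7.63, 8.56 and 7.45 FPKM, so the targeted gene went against the labels and every direction below is between labelled groups (edgeR adjusted p = 0.217 with 8 libraries and 0.0972 without numbers 1 and 2). The enteric neural crest and glia markers summed to 51.5 and 42.2 FPKM in the libraries labelled knockdown 1 and 2, 352, 390.2 and 409.6 FPKM in those labelled 3, 4 and 5, and 1101, 1175 and 1138 FPKM in WT. Of the 12 markers none was at 0 counts in both libraries labelled knockdown 1 and 2, while Sox10, a neural crest transcription factor, was at 1.66 and 0 FPKM there. The 15 leukocyte markers summed to 24860.0 and 21811 FPKM there, 2830.4, 3593 and 1782 FPKM in those labelled 3, 4 and 5, and 778, 831 and 513 FPKM in WT. Because these 2 libraries stand apart, results are given for all 8 libraries and for the 6 without them.

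Most of the mesenchyme and matrix genes were lower in the libraries labelled knockdown 1 and 2 than in any WT library, with 3 exceptions. Together the 35 genes took 0.137% and 0.121% of the counts there, 0.603%, 0.564% and 0.583% in those labelled knockdown 3, 4 and 5, and 0.385%, 0.359% and 0.464% in WT. In both libraries 32 of the 35 genes lay below the whole WT range in FPKM, 15 were under 1 FPKM in both, and each library had 17 at or above 1 FPKM. Nid2, at 9.34 and 6.52 FPKM there, was close to its 7.91 and 8.70 FPKM in the libraries labelled knockdown 4 and 5, and Mfap2 was at 14.6 and 22.1 FPKM. Dcn, the small proteoglycan decorin, was at 2.67 and 18.7 FPKM there and at 57.1, 86.4 and 153 FPKM in WT. Sparc, a calcium-binding matricellular protein, was at 5.90 and 22.1 FPKM there, against 499, 359.9 and 533 FPKM in WT. Twist2, a mesenchymal transcription factor, had 0 counts in both, and a count of 0 allows up to 0.117 and 0.112 CPM (counts scaled to an equal library size), for counting error only. Pdgfra, Prrx1 and Dpt also had 0 counts in the library labelled knockdown 1, while in each of the other 6 libraries all 35 genes had at least 1 count.

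The exceptions were Cd44, Thbs1 and Tgfbi, which lay above the whole WT range in both libraries. Cd44, the hyaluronan receptor, was at 66.1 and 58.4 FPKM in the libraries labelled knockdown 1 and 2, 10.9, 19.2 and 17.0 FPKM in those labelled 3, 4 and 5, and 4.01, 5.37 and 6.67 FPKM in WT. Thbs1, the adhesive glycoprotein thrombospondin 1, was at 87.2 and 55.0 FPKM, 19.9, 22.5 and 28.2 FPKM and 7.25, 9.53 and 8.87 FPKM in the same groups. Tgfbi, a secreted adhesion protein induced by TGF-beta, was at 181 and 143 FPKM, 157, 139.9 and 150.2 FPKM and 69.4, 88.8 and 96.8 FPKM. All 5 libraries labelled knockdown lay above all 3 WT libraries for each of the 3 genes. They made up 85.7% and 65.2% of the summed FPKM of the 35 genes in the libraries labelled knockdown 1 and 2, 6.26% to 8.25% in those labelled 3 to 5, and 4.25% to 5.57% in WT. Cd44 and Thbs1 were highest in the libraries with the highest leukocyte marker sums, given above. Tgfbi was highest in that labelled knockdown 1, and had a coefficient of variation of 10.6% among the 5 libraries labelled knockdown. The part of leukocytes in the values of the 3 genes was not tested. In such bulk samples, fewer cells of a type and less RNA per cell cannot be told apart.

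**Figure D1:**
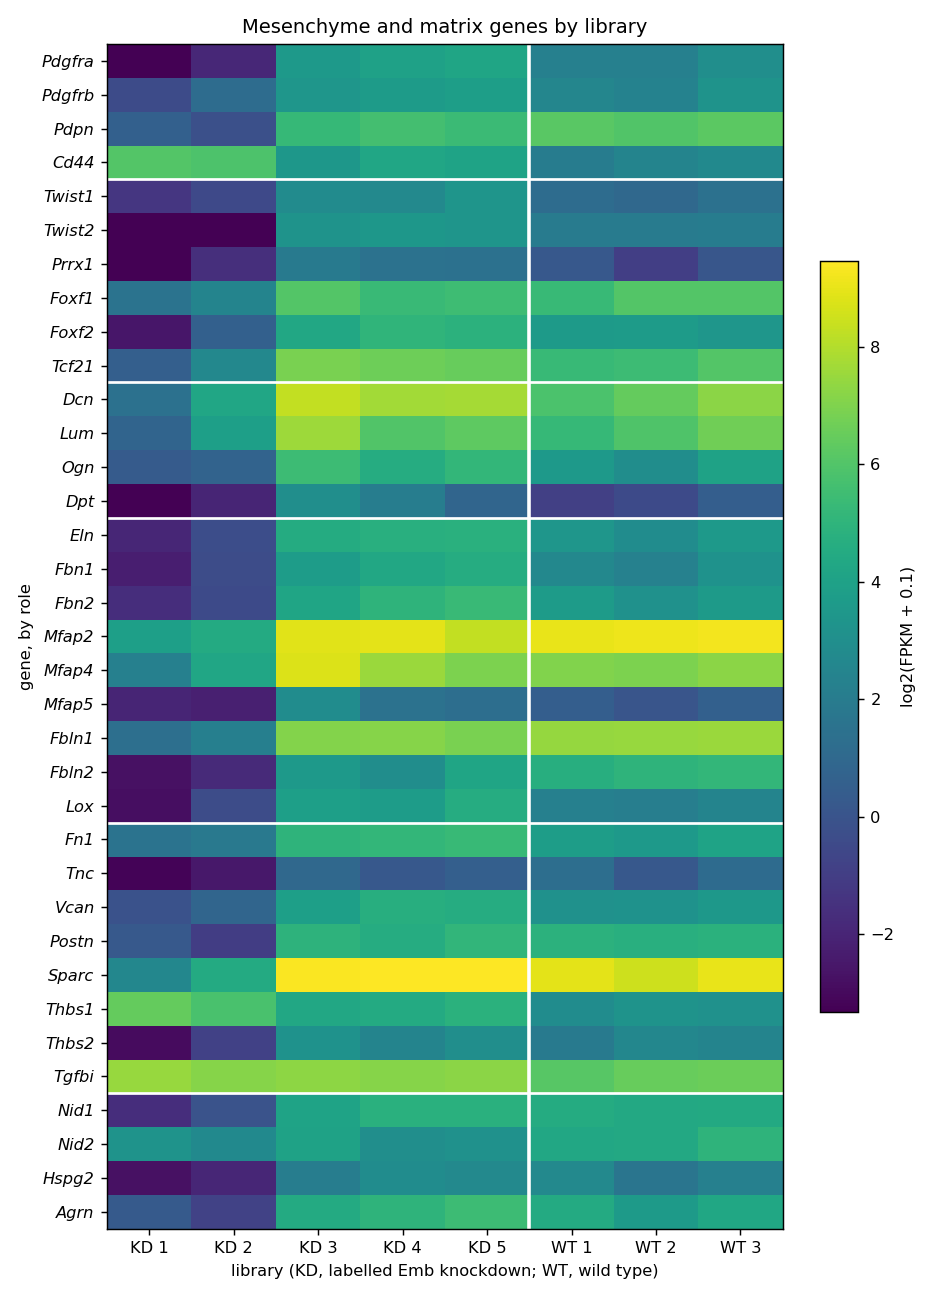
Expression of the 35 genes (rows, with white lines between role groups and between the labelled groups) in the 8 libraries (columns, KD for labelled knockdown), coloured by log2(FPKM + 0.1). The columns KD 1 and KD 2 are darker than the WT columns for every gene but Cd44, Thbs1 and Tgfbi, and Sparc and Mfap2 are the brightest genes in the other 6 libraries.

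With all 8 libraries, 0 of the 35 genes and 0 of the 15411 genes tested passed edgeR's quasi-likelihood test at a Benjamini-Hochberg adjusted p under 0.05, a background of 0% called, while 2865 genes had an unadjusted p under 0.05. At an unadjusted p under 0.05 edgeR's test picked 3 of the 35 as higher, where 12.7% of all genes were, and 1 as lower, where 5.9% were. All 35 genes passed the filter on low counts. Those 4 and the next gene by p were Tgfbi, Thbs1, Cd44, Nid2 and Fbln2. Tgfbi averaged 154 ± 16.4 FPKM over the 5 libraries labelled knockdown, against 85.0 ± 14.1 FPKM over the 3 WT libraries (SD), with a log2 fold change of 1.16 ± 0.26 (SE) and an edgeR adjusted p of 0.137. The log2 fold change was 2.72 ± 0.71 for Thbs1 (edgeR adjusted p = 0.148) and 3.12 ± 0.85 for Cd44 (0.154). Nid2, the basement membrane linker nidogen 2, was at 9.34, 6.52, 16.5, 7.91 and 8.70 FPKM in the libraries labelled knockdown 1 to 5, against 20.4, 21.0 and 31.7 FPKM in WT (log2 fold change -1.07 ± 0.30, edgeR adjusted p = 0.154). Fbln2, the matrix protein fibulin 2, was at 0.05, 0.19, 11.5, 7.68 and 18.3 FPKM, against 25.4, 32.3 and 34.6 FPKM in WT (-1.95 ± 1.32, edgeR adjusted p = 0.477). In both genes the groups did not overlap.

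DESeq2's Wald test called 4 of the 35 with the same 8 libraries, Tgfbi, Thbs1 and Cd44 as higher (adjusted p = 0.000348, 0.00104 and 0.00107) and Nid2 as lower (0.0166), where it called 10.5% of all genes higher and 3.91% lower, 14.4% in all. Limma voom with quality weights called 6, adding Twist1 as higher (adjusted p = 0.0483) and Fbln2 as lower (0.0457), where it called 12.5% of all genes higher and 11.5% lower, 24% in all. The 6 of 35 genes are thus no larger a share than that over all genes. In CPM the groups did not overlap for 3 of the 35 genes on the higher side (10.8% of all genes) and for 5 on the lower side (11.9% of all genes). The 5 were Pdpn, Mfap2, Fbln1, Fbln2 and Nid2. The median log2 fold change of the 35 genes was 0.51 in edgeR, against 0.07 for all genes, but turned to -1.07 on log2(FPKM + 0.1), against -0.35 for all genes, and to -2.16 in edgeR with the replicate number as a block, against -0.09. WT has no libraries 4 and 5, so in the blocked fit the group difference came from numbers 1 to 3 alone. With 8 libraries the direction of the list's median thus depended on the scale and on the libraries behind the difference.

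**Figure D2:**
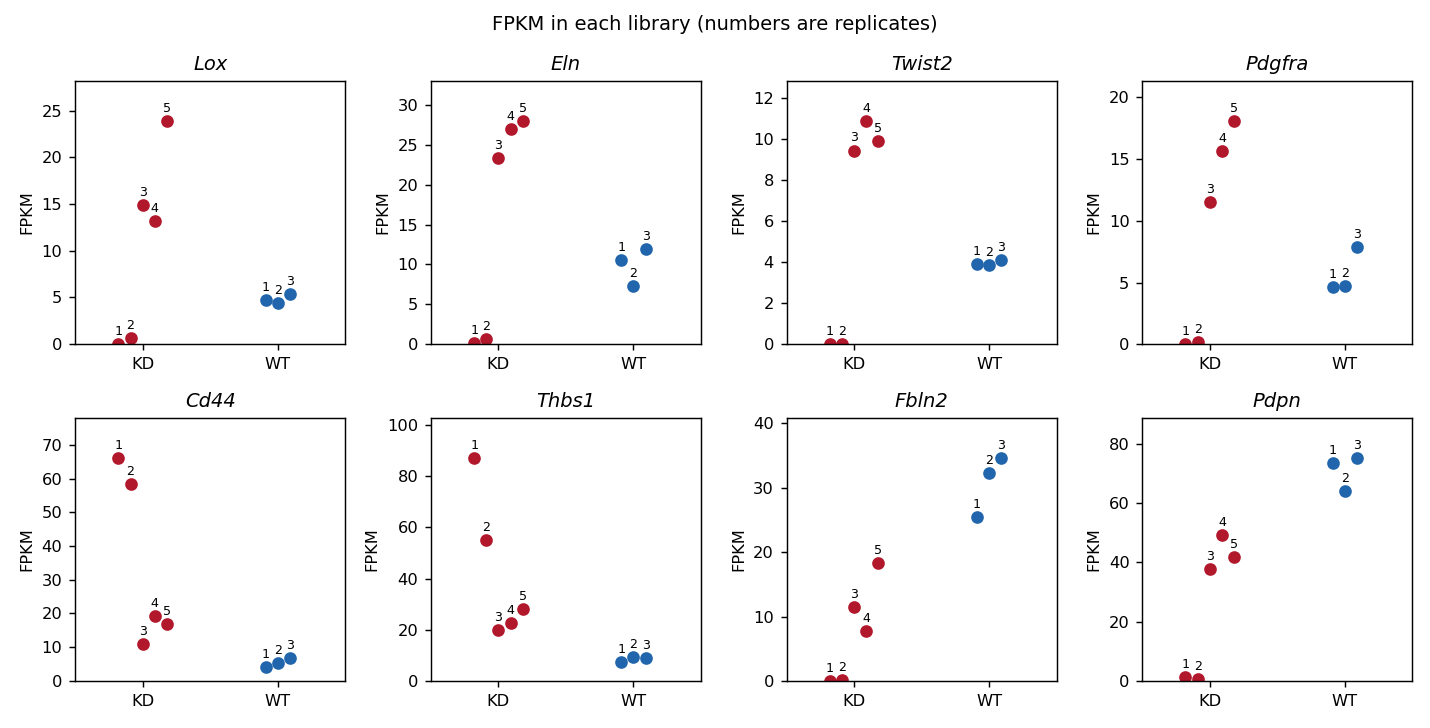
FPKM of 8 of the genes in each library, with the libraries labelled knockdown (KD, red) left of WT (blue) and replicate numbers above the points. Lox, Eln, Twist2 and Pdgfra are near 0 in KD 1 and KD 2 and above WT in KD 3 to 5, Cd44 and Thbs1 are highest in KD 1 and KD 2, and all KD points lie below WT for Fbln2 and Pdpn.

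In the comparison of the libraries labelled knockdown 3 to 5 with WT, 19 of the 35 genes rose, 3 fell and 13 did not pass. EdgeR's quasi-likelihood test called 11.1% of all 15115 genes higher and 9.37% lower, 20.4% in all. DESeq2 called 23 of the 35 higher and 3 lower, where it called 16.2% and 13.8% of all genes, 30% in all. Voom also called 23 higher and 3 lower, where it called 23.4% and 22.2%, 45.7% in all. The median log2 fold change of the 35 was 1.15, against 0.02 for all genes tested. Of the calls over all genes 54.1% were higher with TMM scaling and 38.4% on log2(FPKM + 1), while of the 35 genes 19 were called higher and 3 lower on either scale. In CPM the groups did not overlap for 22 of the 35 on the higher side, where 20.5% of all genes did so, and for 5 on the lower side, where 22.8% did, or 27 in all (43.4% of all genes). At an unadjusted p under 0.05 edgeR's test picked 24 as higher (19.8% of all genes) and 3 as lower (17.7%), together 27 (37.5%). The number of genes called at an adjusted p under 0.05 rested on single libraries. Of the 35 it was 24, 2 and 21 without knockdown-labelled library 3, 4 and 5, and 15, 5 and 10 without WT library 1, 2 and 3. Calls over all genes moved as well, from 3090 with all 6 libraries to 5982, 180 and 1663 without knockdown-labelled library 3, 4 and 5. Without WT library 1, 2 and 3 they were 1388, 417 and 294. The number of the 35 with an unadjusted p under 0.05 in edgeR moved less. It was 26, 27 and 25 without knockdown-labelled library 3, 4 and 5, where 7530, 4183 and 5017 of all genes were. Without WT library 1, 2 and 3 it was 26, 24 and 26, where 4852, 4077 and 4100 of all genes were. Of the 35 genes, Lox and Thbs1 alone stayed called without the library labelled knockdown 4, and their calls held in all 6 such fits. The median log2 fold change of the 35 stayed between 1.02 and 1.29.

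Markers of several cell types moved between the same 6 libraries. Collagen genes of mesenchyme (Col1a1, Col1a2 and Col3a1 of fibrils and Col6a3 of collagen VI) summed to 891, 859 and 1001 FPKM in the libraries labelled knockdown 3, 4 and 5, against 456, 516 and 663 FPKM in WT, and 3 of the 4 rose, Col1a1 not passing. Of 15 leukocyte markers 12 rose and none fell. Of 13 endothelial markers 12 fell, the sums being 129.5, 87.5 and 56.2 FPKM, against 341, 304 and 399 FPKM in WT. Of 12 markers of enteric neural crest and glia 9 fell and none rose, and of 5 neuronal markers 2 fell. Of 8 smooth muscle markers 1 rose, the sums being 2039, 1354 and 871 FPKM, against 1145, 1769 and 1077 FPKM in WT. Of 5 pericyte markers 3 rose and none fell, with sums of 57.1, 52.6 and 48.6 FPKM, against 27.6, 27.4 and 39.8 FPKM in WT. No marker in these lists was at 0 counts in all 3 libraries of a group. Their part in the results below was not tested.

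**Figure D3:**
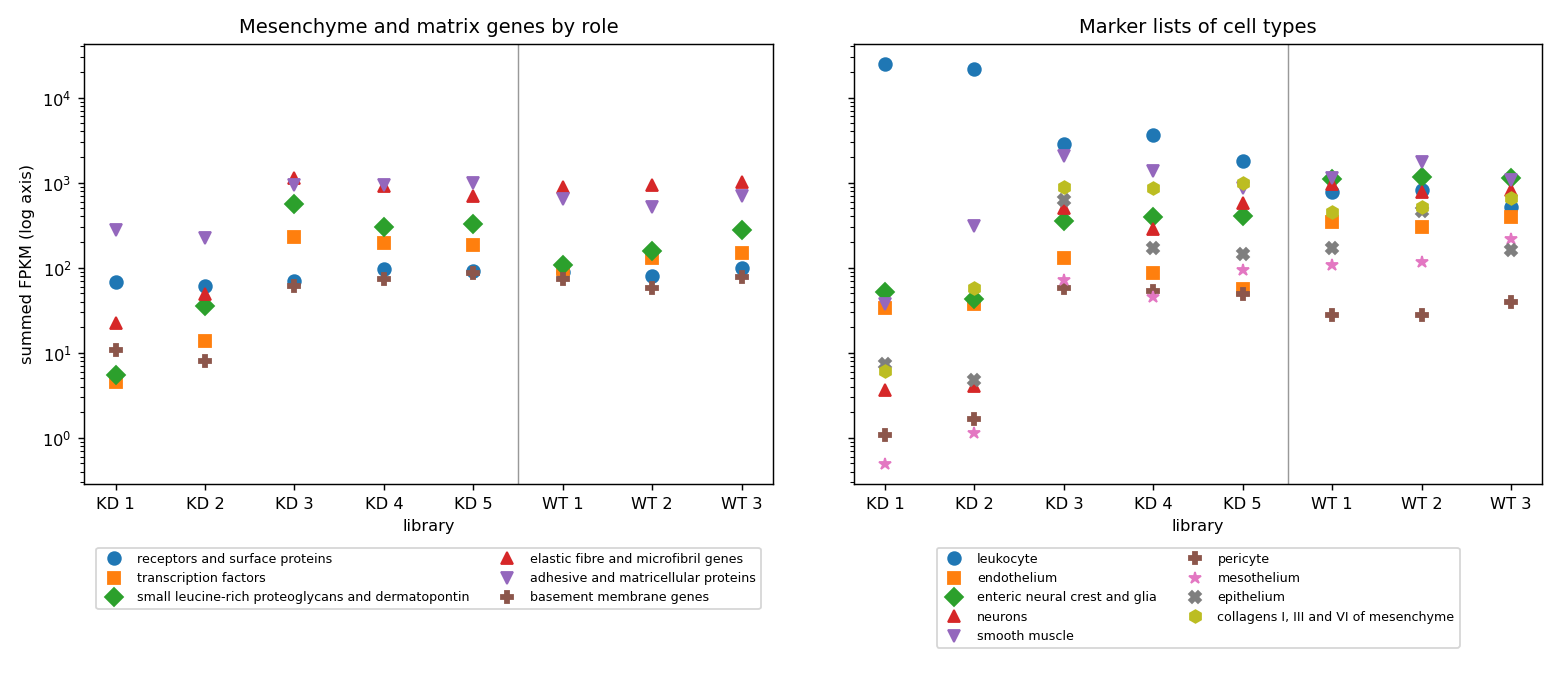
Summed FPKM of the 35 genes by role (left) and of the marker lists of cell types (right) in each library, on a log axis, with KD for labelled knockdown left of WT. Most sums are lowest in KD 1 and KD 2, where the leukocyte sum is highest, and in KD 3 to 5 the transcription factor and collagen sums lie above WT while the endothelial sum lies below.

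Among receptors and surface proteins, 3 of 4 genes rose and 1 fell. Pdgfra, the receptor of PDGF-A that marks gut mesenchyme, was at 11.5, 15.6 and 18.1 FPKM in the libraries labelled knockdown 3, 4 and 5, against 4.65, 4.70 and 7.84 FPKM in WT libraries 1, 2 and 3. It rose by 1.49 ± 0.26 (log2 fold change and SE, edgeR adjusted p = 0.0119), and the groups did not overlap. Pdgfrb, a receptor of PDGF-B found on mesenchyme and pericytes, was at 10.3, 12.9 and 14.2 FPKM in those labelled knockdown 3 to 5, against 5.79, 4.99 and 9.46 FPKM in WT 1 to 3. The lowest library labelled knockdown lay just above the highest WT library, and the log2 fold change was 0.98 ± 0.27 (edgeR adjusted p = 0.0363). Cd44, whose values are given above, rose by 1.65 ± 0.27 on the log2 scale (edgeR adjusted p = 0.0105). Pdpn, the mucin-type glycoprotein podoplanin of mesothelium, lymphatic vessels and stromal cells, was at 37.8, 49.1 and 41.9 FPKM in those labelled knockdown 3 to 5, against 73.3, 64.0 and 75.2 FPKM in WT 1 to 3. It fell by 0.64 ± 0.18 on the log2 scale (edgeR adjusted p = 0.0426), and all 3 libraries labelled knockdown lay below WT. Beside it, 2 of 5 mesothelial markers fell and none rose, with sums of 71.7, 45.4 and 94.0 FPKM, against 107, 115 and 215 FPKM in WT. Without the library labelled knockdown 4 all 4 calls were lost (adjusted p from 0.0611 to 0.127). Those of Pdgfrb and Pdpn also failed without knockdown-labelled library 5 or without WT library 1 or 3, and these calls and that of Pdgfra without WT library 2 (adjusted p from 0.0509 to 0.156 over these fits).

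Of the 6 transcription factors 5 rose and 1 did not pass. Twist1, a basic helix-loop-helix factor of mesenchyme, was at 7.06, 6.47 and 9.97 FPKM in the libraries labelled knockdown 3, 4 and 5, against 2.23, 1.89 and 2.65 FPKM in WT libraries 1, 2 and 3, a log2 fold change of 1.89 ± 0.35 (edgeR adjusted p = 0.0136). Twist2, its close relative, was at 9.44, 10.9 and 9.90 FPKM in those labelled knockdown 3 to 5, against 3.91, 3.88 and 4.10 FPKM in WT 1 to 3. Its values spread little within either group, and it rose by 1.45 ± 0.30 (edgeR adjusted p = 0.0163). Prrx1, a homeobox factor of limb and craniofacial mesenchyme, was low at 3.64, 2.75 and 2.62 FPKM in those labelled knockdown 3 to 5, against 1.03, 0.41 and 0.97 FPKM in WT 1 to 3, and rose by 2.01 ± 0.42 (edgeR adjusted p = 0.0176). Foxf2, a forkhead factor of gut mesenchyme, was at 20.1, 33.4 and 30.1 FPKM in those labelled knockdown 3 to 5, against 12.2, 12.9 and 10.5 FPKM in WT 1 to 3, and rose by 1.33 ± 0.24 (edgeR adjusted p = 0.0129). Tcf21, a helix-loop-helix factor of visceral mesenchyme, was at 121, 99.8 and 88.8 FPKM in those labelled knockdown 3 to 5, against 38.8, 44.0 and 66.8 FPKM in WT 1 to 3, and rose by 1.15 ± 0.23 (edgeR adjusted p = 0.0158). In all 5 the groups did not overlap. Foxf1, the other forkhead factor that gut mesenchyme expresses downstream of Hedgehog signals, was at 66.6, 41.1 and 45.5 FPKM in those labelled knockdown 3 to 5, against 38.9, 65.3 and 65.2 FPKM in WT 1 to 3. Its groups overlapped and its log2 fold change was -0.05 ± 0.25 (edgeR adjusted p = 0.9). All 5 calls were lost without knockdown-labelled library 4 (adjusted p from 0.0568 to 0.0779) or WT library 2 (0.0528 to 0.076), 4 of them without WT library 3 (0.0593 to 0.0773) and that of Tcf21 without WT library 1 (0.0545).

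Of the small leucine-rich proteoglycans and dermatopontin, 3 of 4 rose. Dcn was at 313, 205 and 212 FPKM in the libraries labelled knockdown 3, 4 and 5, against 57.1, 86.4 and 153 FPKM in WT libraries 1, 2 and 3, and rose by 1.38 ± 0.34 on the log2 scale (edgeR adjusted p = 0.0273). Lum, the related proteoglycan lumican, was at 190.2, 64.2 and 77.1 FPKM in those labelled knockdown 3 to 5, against 38.4, 61.6 and 104 FPKM in WT 1 to 3. The groups overlapped, with one library labelled knockdown far above the rest and WT library 3 above the remaining 2, and the log2 fold change of 0.79 ± 0.45 did not pass (edgeR adjusted p = 0.23). Dcn and Lum are neighbours on chromosome 10 of GRCm38.p6, Dcn from 97479500 to 97518163 and Lum from 97565501 to 97572703. Ogn, the proteoglycan osteoglycin, was at 42.8, 23.9 and 35.04 FPKM in those labelled knockdown 3 to 5, against 11.5, 7.73 and 16.5 FPKM in WT 1 to 3, and rose by 1.59 ± 0.31 (edgeR adjusted p = 0.0149). Dpt, which encodes the small matrix protein dermatopontin, was at 7.78, 4.23 and 1.71 FPKM in those labelled knockdown 3 to 5, against 0.44, 0.63 and 1.33 FPKM in WT 1 to 3, and had the highest log2 fold change of the 35, 2.61 ± 0.67 (edgeR adjusted p = 0.0311). All 3 calls were lost without knockdown-labelled library 4 (adjusted p from 0.056 to 0.103) or WT library 2 (0.0563 to 0.113), those of Dcn and Dpt without WT library 1 (0.0653 and 0.0939), and that of Dpt also without knockdown-labelled library 3 (0.0569) or WT library 3 (0.0687).

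**Figure D4:**
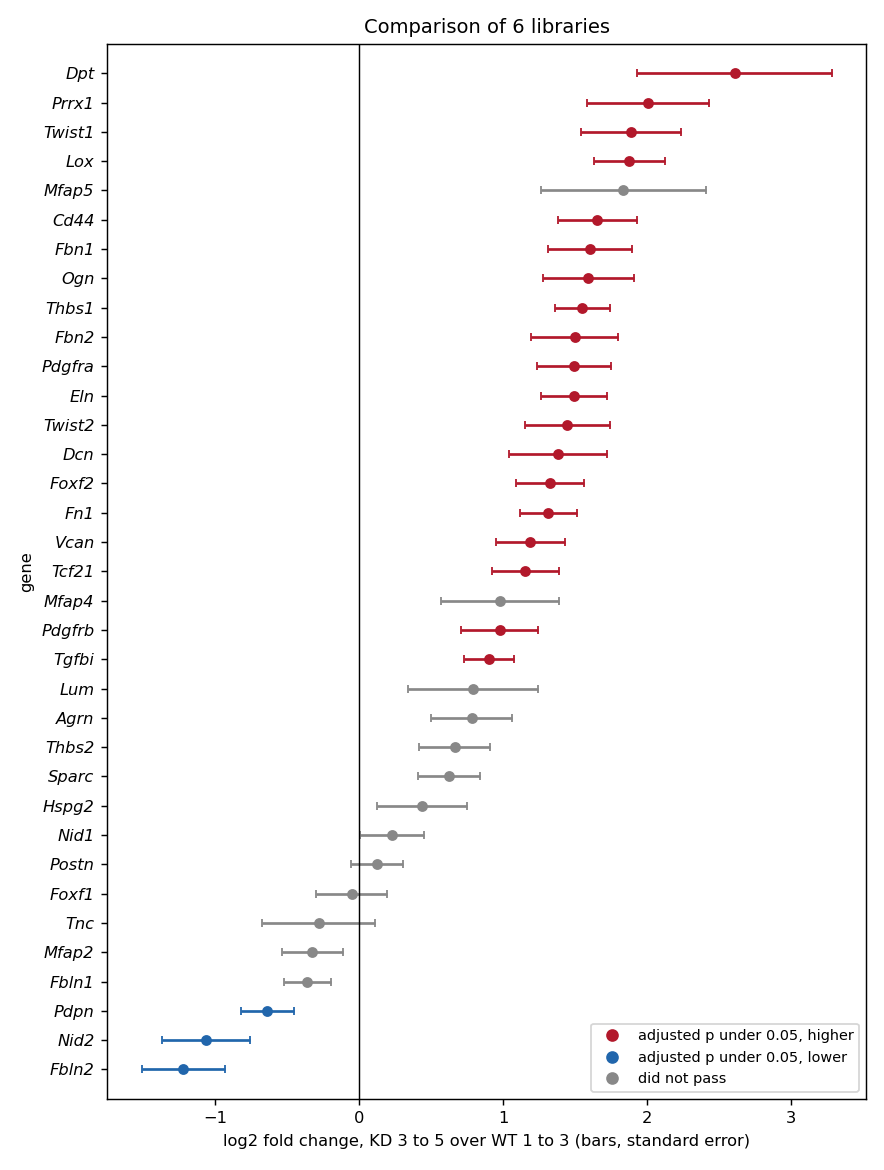
Log2 fold changes of the 35 genes in the comparison of the libraries labelled knockdown 3 to 5 (KD) over WT 1 to 3, with standard errors as bars, 3 libraries in each group. The 19 red points passed an adjusted p under 0.05 as higher, the 3 blue points (Pdpn, Nid2 and Fbln2) as lower, and the 13 grey points did not pass.

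The elastic fibre and microfibril genes went both ways, with 4 of 9 higher, 1 lower and 4 not passing. Eln, which encodes elastin, was at 23.4, 27.0 and 27.9 FPKM in the libraries labelled knockdown 3, 4 and 5, against 10.6, 7.24 and 11.96 FPKM in WT libraries 1, 2 and 3, and rose by 1.49 ± 0.23 on the log2 scale (edgeR adjusted p = 0.0091). Lox, the crosslinking enzyme lysyl oxidase, was at 14.9, 13.2 and 23.9 FPKM in those labelled knockdown 3 to 5, against 4.69, 4.38 and 5.35 FPKM in WT 1 to 3, and rose by 1.87 ± 0.25 (edgeR adjusted p = 0.00521). The Lox call held without each library in turn (adjusted p from 0.00132 to 0.0315). Fbn1, the microfibril scaffold fibrillin 1, was at 13.2, 19.96 and 23.8 FPKM in those labelled knockdown 3 to 5, against 6.06, 4.84 and 8.92 FPKM in WT 1 to 3, a log2 fold change of 1.60 ± 0.29 (edgeR adjusted p = 0.0133). Fbn2, the fibrillin prominent in embryonic tissue, was at 18.4, 31.97 and 39.9 FPKM in those labelled knockdown 3 to 5, against 12.7, 8.81 and 12.6 FPKM in WT 1 to 3, with a change of 1.5 ± 0.30 (edgeR adjusted p = 0.0157). In these 4 genes all 3 libraries labelled knockdown lay above all 3 WT libraries.

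Fbln2 was the microfibril-associated gene that fell, at 11.5, 7.68 and 18.3 FPKM in those labelled knockdown 3 to 5, against 25.4, 32.3 and 34.6 FPKM in WT 1 to 3 (log2 fold change -1.22 ± 0.29, edgeR adjusted p = 0.0241). Fbln1, the related fibulin 1, was at 134, 142 and 121 FPKM in those labelled knockdown 3 to 5, against 175, 177 and 188 FPKM in WT 1 to 3. The groups did not overlap, yet the log2 fold change of -0.36 ± 0.16 did not pass (edgeR adjusted p = 0.143). Mfap2, a glycoprotein of microfibrils, was among the most abundant of the 35 at 474, 485 and 309.7 FPKM in those labelled knockdown 3 to 5, against 529.8, 568.1 and 612 FPKM in WT 1 to 3, and did not pass (-0.32 ± 0.21, edgeR adjusted p = 0.289). Mfap4, a microfibril-associated protein that binds elastin, was at 448, 187 and 122 FPKM in those labelled knockdown 3 to 5, against 131, 123 and 153 FPKM in WT 1 to 3, and did not pass (0.98 ± 0.41, edgeR adjusted p = 0.117). Its exons share bases with Mapk7 on the opposite strand, and the libraries do not mark strand. Mfap5, the second glycoprotein of this kind, was at 7.22, 2.71 and 2.32 FPKM in those labelled knockdown 3 to 5, against 1.33, 0.94 and 1.39 FPKM in WT 1 to 3, with 1.83 ± 0.57 and an edgeR adjusted p of 0.0521. The calls of Eln, Fbn1, Fbn2 and Fbln2 were lost without knockdown-labelled library 4 (adjusted p from 0.0552 to 0.0875). Those of Fbn1, Fbn2 and Fbln2 were lost without WT library 2 (0.0539 to 0.0816), and those of Fbn2 and Fbln2 without WT library 3 (0.0676 and 0.0922).

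Of the 8 adhesive and matricellular genes 4 rose and 4 did not pass. Fn1, the adhesive glycoprotein fibronectin, was at 31.3, 35.3 and 38.9 FPKM in the libraries labelled knockdown 3, 4 and 5, against 13.8, 11.5 and 16.9 FPKM in WT libraries 1, 2 and 3, and rose by 1.31 ± 0.20 on the log2 scale (edgeR adjusted p = 0.00792). Vcan, the hyaluronan-binding proteoglycan versican, was at 14.8, 25.9 and 24.4 FPKM in those labelled knockdown 3 to 5, against 8.78, 9.18 and 11.2 FPKM in WT 1 to 3, and rose by 1.19 ± 0.24 (edgeR adjusted p = 0.0154). Thbs1 had the smallest p of the 35 and rose by 1.55 ± 0.19 (edgeR adjusted p = 0.00449). Its call held without each library in turn (adjusted p from 0.000944 to 0.0381). Tgfbi rose by 0.90 ± 0.17 (edgeR adjusted p = 0.0142). The 4 genes did not overlap between the groups. Sparc was at 679, 692 and 705 FPKM in those labelled knockdown 3 to 5, against 499, 359.9 and 533 FPKM in WT 1 to 3. The groups did not overlap, and the log2 fold change of 0.62 ± 0.21 did not pass in edgeR (adjusted p = 0.0674), but passed in DESeq2 (adjusted p = 0.0116) and voom (0.0186).

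Thbs2, the relative thrombospondin 2, was at 9.02, 5.32 and 7.79 FPKM in those labelled knockdown 3 to 5, against 3.65, 5.89 and 5.30 FPKM in WT 1 to 3, and did not pass (0.66 ± 0.25, edgeR adjusted p = 0.0876). Postn, the matricellular protein periostin, was at 31.1, 24.0 and 34.4 FPKM in those labelled knockdown 3 to 5, against 30.1, 26.7 and 29.0 FPKM in WT 1 to 3, with the groups overlapping (0.12 ± 0.18, edgeR adjusted p = 0.653). Tnc, the large glycoprotein tenascin C that surrounds migrating neural crest, was at 1.87, 1.06 and 1.34 FPKM in those labelled knockdown 3 to 5, against 2.32, 1.04 and 2.13 FPKM in WT 1 to 3 (-0.28 ± 0.39, edgeR adjusted p = 0.636). The calls of Fn1, Vcan and Tgfbi were lost without knockdown-labelled library 4 (adjusted p from 0.0514 to 0.0782). Those of Vcan and Tgfbi were lost without WT library 2 (0.0665 and 0.0684) or WT library 3 (both 0.0623), and that of Vcan without WT library 1 (0.0538).

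The basement membrane genes were the role group in which edgeR called none higher, with 1 of 4 lower and 3 not passing. Those 3 had log2 fold changes above 0, and the median of the 4 was 0.33. Nid2, whose values are given above, fell by 1.06 ± 0.30 on the log2 scale (edgeR adjusted p = 0.0412). Nid1, the other nidogen, was at 17.0, 27.9 and 27.4 FPKM in those labelled knockdown 3 to 5, against 23.4, 20.6 and 21.4 FPKM in WT 1 to 3, with overlapping groups (0.23 ± 0.22, edgeR adjusted p = 0.48). Hspg2, the heparan sulfate proteoglycan perlecan, was at 4.24, 7.32 and 6.44 FPKM in those labelled knockdown 3 to 5, against 6.32, 3.07 and 4.65 FPKM in WT 1 to 3, and did not pass (0.43 ± 0.31, edgeR adjusted p = 0.339). Agrn, the related proteoglycan agrin, was at 22.6, 31.3 and 42.9 FPKM in those labelled knockdown 3 to 5, against 22.7, 12.6 and 19.8 FPKM in WT 1 to 3, and did not pass (0.78 ± 0.28, edgeR adjusted p = 0.0783). The Nid2 call was lost without each library except the one labelled knockdown 3 (adjusted p from 0.0759 to 0.16). Nid2 shares exon bases with Rtraf on the opposite strand, so reads of the 2 genes there cannot be told apart. The endothelial marker sums given above were lower in the same libraries, and their part was not tested.

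The balance between related genes was compared within each library as the log2 ratio of their FPKM, with 0.1 added to both. None of the 8 pairs passed with adjustment over the 8 (exact two-sided permutation tests, smallest adjusted p = 0.143 with 8 libraries and 0.229 with 6). With 5 libraries against 3 the smallest p the exact two-sided test gave was 0.0357, and 3 against 3 cannot go below 0.1. The ratio of Mfap2 to Mfap5 was 5.88, 6.66, 6.02, 7.43 and 7.00 in the libraries labelled knockdown 1 to 5, against 8.53, 9.09 and 8.68 in WT, lower in 5 of 5 (difference -2.17, exact permutation p = 0.0357, adjusted p = 0.143). The ratio of Thbs1 to Thbs2 was 9.39, 6.65, 1.13, 2.06 and 1.84, against 0.97, 0.69 and 0.73 in WT, higher in 5 of 5 (difference 3.42, same p). In the libraries labelled knockdown 1 and 2 the added 0.1 weighs on both ratios, since Mfap5 was at 0.15 and 0.12 FPKM and Thbs2 at 0.03 and 0.45 FPKM there. Without these libraries the differences were -1.95 and 0.88, with groups still apart (exact permutation p = 0.1 each, adjusted p = 0.229). Between Pdgfra and Pdgfrb the ratio was 0.16, 0.28 and 0.34 in the libraries labelled knockdown 3, 4 and 5, against -0.31, -0.08 and -0.27 in WT, so that Pdgfra was the higher of the 2 per length in those libraries and Pdgfrb in WT (difference 0.48, exact permutation p = 0.1, adjusted p = 0.229). No ratio is given for the libraries labelled knockdown 1 and 2, where Pdgfra was at 0 and 0.17 FPKM and the added 0.1 sets it. The ratio of Nid1 to Nid2 was -4.88, -2.77, 0.05, 1.80 and 1.65 in the libraries labelled knockdown 1 to 5, against 0.20, -0.02 and -0.56 in WT, with overlapping groups.

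**Figure D5:**
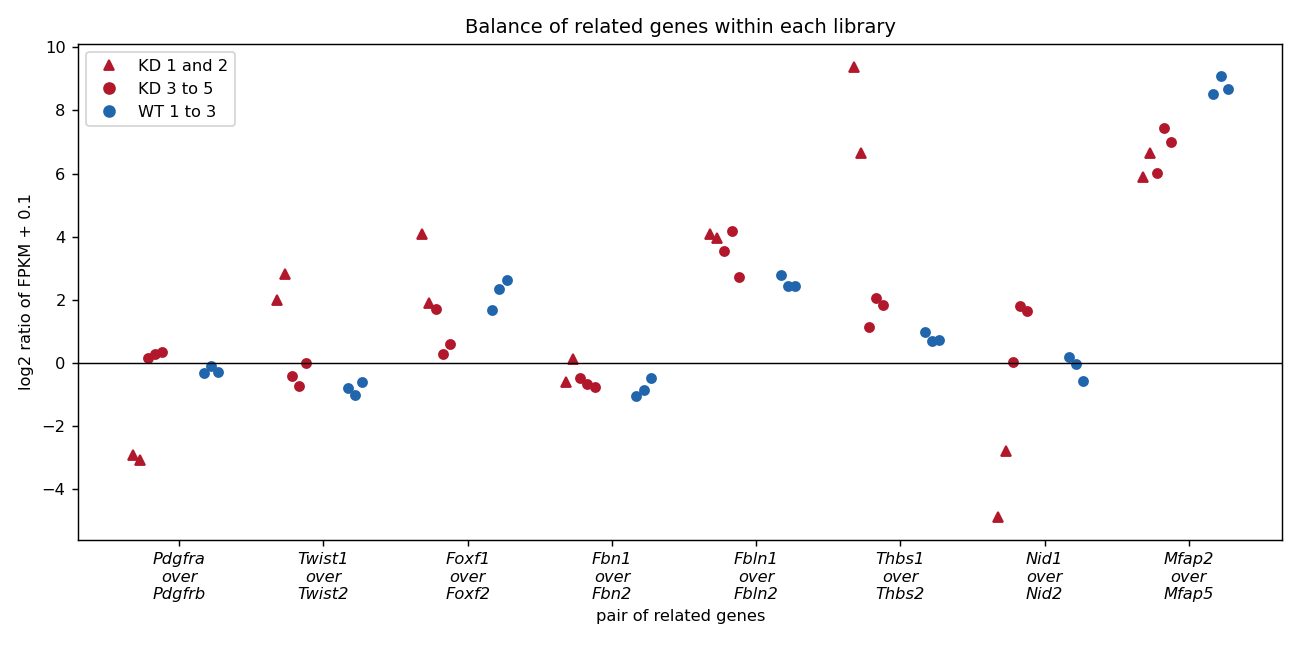
Log2 ratio of FPKM + 0.1 between 2 related genes within each library, with the libraries labelled knockdown (KD, red, triangles for KD 1 and KD 2) left of WT (blue). Red and blue points do not overlap for Thbs1 over Thbs2 and Mfap2 over Mfap5, and the triangles lie below the red circles for Nid1 over Nid2. For Pdgfra over Pdgfrb the triangles are set by the added 0.1, since Pdgfra was at 0 and 0.17 FPKM.

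The order of levels among the 35 genes, per length, was much alike at the top in both groups of the 6 libraries. Sparc and Mfap2 led, together 38.4%, 46.6% and 42.9% of the summed FPKM of the 35 genes in the libraries labelled knockdown 3, 4 and 5, against 54.2%, 49.9% and 49.1% in WT. Sparc ranked first in those labelled knockdown 3 to 5, at 692 ± 13.4 FPKM, and Mfap2 first in WT, at 569.8 ± 40.9 FPKM (SD, n = 3 each). In WT the ranges of Mfap2 and Sparc overlapped, although Mfap2 was the higher in each library. Fbln2 had the largest shift in rank, 26th of 35 in the libraries labelled knockdown 3 to 5 and 11th in WT. Within the libraries labelled knockdown 3 to 5, Sparc varied least, with a coefficient of variation of 1.93%, and Mfap4, Dpt and Mfap5 most (68.6%, 66.7% and 66.7%). Of these 3 libraries, that labelled knockdown 3 was highest for 13 of the 35 genes, that labelled 4 for 9 and that labelled 5 for 13. The 4 small proteoglycan and dermatopontin genes, Mfap4 and Mfap5 were all highest in that labelled knockdown 3. That library also had the highest epithelial sum, 627, 171 and 143 FPKM in those labelled knockdown 3, 4 and 5 and 168, 462 and 162 FPKM in WT, and the part of such cells was not tested. Among WT libraries, number 3 was highest for 24 of the 35 genes.

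In the comparison of 6 libraries, 85 other matrix and mesenchyme genes were read in 6 lists. Not all 85 were tested. Of those tested, edgeR called 19, DESeq2 30 and voom 35, where 20.4%, 30% and 45.7% of all genes tested passed. The shares were near those over all genes in edgeR and voom, and somewhat above in DESeq2. With all 8 libraries edgeR called 0 of them, with 6 at an unadjusted p under 0.05, while DESeq2 called 5 and voom 9, shares below the 18.6%, 14.4% and 24% over all genes. Among elastic fibre partners 2 of 13 tested rose. Loxl2, a lysyl oxidase relative, averaged 28.0 ± 2.84 FPKM in the libraries labelled knockdown 3 to 5 and 11.2 ± 2.07 FPKM in WT (SD, n = 3 each), a log2 fold change of 1.39 ± 0.21 (edgeR adjusted p = 0.00792). Ltbp3, a latent TGF-beta binding protein, rose by 0.89 ± 0.18 (edgeR adjusted p = 0.0157), and Emilin2 (1.23 ± 0.39) and Loxl3 (-0.62 ± 0.22) did not pass. Among other proteoglycans and hyaluronan genes 4 of 12 rose and 1 fell. Aspn, the small proteoglycan asporin, averaged 19.4 ± 5.04 FPKM in the libraries labelled knockdown 3 to 5 and 4.83 ± 2.26 FPKM in WT (SD, n = 3 each), a log2 fold change of 2.10 ± 0.35 (edgeR adjusted p = 0.0105). Omd (2.24 ± 0.54) and the hyaluronan synthase gene Has1 (1.82 ± 0.48) rose, and Fmod, fibromodulin, fell by 1.09 ± 0.27 on the log2 scale (edgeR adjusted p = 0.025, 0.0327 and 0.0275). Omd was at 2.58, 9.12 and 12.75 FPKM in those labelled knockdown 3 to 5, against 1.93, 1.67 and 1.90 FPKM in WT 1 to 3. Has1 was at 1.04, 3.07 and 3.36 FPKM, against 1.03, 0.53 and 0.76 FPKM, so both were just above WT in that labelled knockdown 3. Of 15 other matricellular genes 0 passed in edgeR, 3 in DESeq2 and 6 in voom, where 20.4%, 30% and 45.7% of all genes passed. The 4 with an unadjusted p under 0.05 in edgeR were Spock1, Ccn4, Tnxb and Ccn2 (adjusted p = 0.0598, 0.0682, 0.0693 and 0.119). The median log2 fold changes of these 3 lists were 0.22, 0.03 and 0.15.

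Of 20 genes of matrix processing and remodelling 5 rose and 2 fell, where edgeR called 11.1% of all genes higher and 9.37% lower. Fap, a serine protease of activated fibroblasts, averaged 13.03 ± 4.44 FPKM in the libraries labelled knockdown 3 to 5 and 2.23 ± 0.731 FPKM in WT (SD, n = 3 each), a log2 fold change of 2.48 ± 0.31 (edgeR adjusted p = 0.00494). Timp1, an inhibitor of matrix metalloproteinases, rose by 1.30 ± 0.25, and the proteases Adamts9 and Mmp9 rose by 1.29 ± 0.27 and 3.26 ± 0.86 (edgeR adjusted p = 0.0147, 0.0164 and 0.0332). Mmp9 was low, at 1.88, 1.96 and 0.67 FPKM in those labelled knockdown 3 to 5, against 0.14, 0.33 and 0.03 FPKM in WT 1 to 3. It was at 11.3 and 1.58 FPKM in those labelled knockdown 1 and 2. The 2 that fell were named after their values were seen. Serpinh1, a collagen chaperone, averaged 331 ± 158 FPKM in the libraries labelled knockdown 3 to 5 and 846 ± 224 FPKM in WT (SD, n = 3 each), a log2 fold change of -1.26 ± 0.34 (edgeR adjusted p = 0.0357), and Mmp11, a matrix metalloproteinase, 22.1 ± 7.05 FPKM in the libraries labelled knockdown 3 to 5 and 42.0 ± 7.26 FPKM in WT (SD, n = 3 each), a change of -0.88 ± 0.25 (0.0391). Both calls were lost without knockdown-labelled library 4 or 5 or WT library 2 or 3, and that of Mmp11 without WT library 1 (edgeR adjusted p from 0.0637 to 0.155). Of 16 other mesenchyme regulators 3 rose and none fell. Gli1, a transcriptional effector and target of Hedgehog signalling, averaged 21.8 ± 9.99 FPKM in the libraries labelled knockdown 3 to 5 and 7.80 ± 0.595 FPKM in WT (SD, n = 3 each), a log2 fold change of 1.57 ± 0.33 (edgeR adjusted p = 0.0178). The homeobox gene Nkx2-3 and the helix-loop-helix gene Hand1 rose by 1.48 ± 0.34 and 0.90 ± 0.26 (edgeR adjusted p = 0.023 and 0.0408), and Barx1 was at 0.65 ± 0.22 without passing (0.0649). Among the 4 PDGF ligands Pdgfa, a ligand of Pdgfra, rose, at 27.4, 30.6 and 34.4 FPKM in those labelled knockdown 3 to 5, against 15.4, 17.9 and 18.0 FPKM in WT 1 to 3 (0.96 ± 0.17, edgeR adjusted p = 0.0129). Pdgfd fell, at 2.29, 1.28 and 1.67 FPKM in those labelled knockdown 3 to 5, against 4.00, 4.69 and 5.29 FPKM in WT 1 to 3 (-1.25 ± 0.34, 0.0341), and Pdgfb (-0.05 ± 0.34) and Pdgfc (-0.34 ± 0.34) did not pass.

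Beside Serpinh1 and Mmp11, 15 genes were named as called in these lists. Of these 15, Fap and Aspn kept their call without each library in turn. The other 13 lost it without knockdown-labelled library 4 (edgeR adjusted p from 0.0526 to 0.128), 6 without number 5 (0.0596 to 0.1), and 9, 12 and 12 without WT library 1, 2 and 3 (0.05 to 0.119, 0.0611 to 0.109 and 0.0636 to 0.16). The median log2 fold changes of the last 3 lists were 0.19, 0.27 and -0.20.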

How the data were processed

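RNA of about 200 sorted cells per tube was amplified by Smart-seq2 and sequenced, per the labels' protocols. The submitters' processing notes name HISAT, Bowtie2 and GRCm38.p6, with no version, but neither the counting tool nor the annotation is given in the sources used here. Per the file headers, the authors deposited read counts, FPKM, TPM and normalised read counts for each library. The deposited read counts are estimated counts, since 17.6% to 19.8% of values per library were not whole. The FPKM were computed by the authors and are used for levels. The TPM deposited by the authors sum to the same total in each library and were not used further. The authors' normalised read counts, a signal equal to the counts times 1 factor per library, were not used for tests. The authors' 8 columns of group means were left out.

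Expected counts were rounded, filtered with filterByExpr, scaled by TMM and tested with edgeR 4.0.16 (robust quasi-likelihood, R 4.3.3) over all genes with Benjamini-Hochberg adjustment, at an adjusted p of 0.05. Alternatives used DESeq2 1.42.0, limma 3.58.1 with voom or log2(FPKM + 1) and log2(FPKM + 0.1), other scalings and filters, and each library left out. Ratios of related genes were compared by exact permutation with scipy 1.17.1. The edgeR fits, but not the alternatives, were run on simulated counts with known fold changes as a check of the code. Motifs were searched in 250 bases before RefSeq starts, and exon overlaps were read from GENCODE M21.

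The 35 genes, the lists and the comparison of 6 libraries were chosen with earlier results of these data known. Every one of the 35 genes was accounted for. Per-library values were to be given for genes called in the comparison of 6 libraries and the 2 most abundant per role. The 5 smallest p were named with 8 libraries, and up to 4 from each other list. Depth was 20116607 to 26959265 expected counts per library, and the floor of 3 counts covers counting error only. Counts of any 2 libraries differed beyond counting error, with a chi-square of at least 29.5 per degree of freedom, so none was a copy of another. That cannot show whether the libraries came from separate embryos.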

Additional observations from a re-analysis of the deposited data

Results flagged for a closer look

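Of the 35 genes, each examined over the 5 libraries labelled knockdown, 1 had a library far from the rest. Nid2 was at 16.47 FPKM in the library labelled knockdown 3, and the next highest was 9.34 FPKM. That gap is 0.717 of the range of the 5 libraries, against a critical value of 0.71. Chance gives such a gap in about 1 in 20 groups, and 35 were examined. With this library left out, Nid2 was again called lower in the libraries labelled knockdown 4 and 5 than in WT (edgeR adjusted p = 0.00227). Since the library left out was the highest of its group, the gap to WT could only widen, so this is no check on the call. That fit called 5982 of 15394 genes, against 3090 of 15115 with all 6 libraries. Leaving out any of the other libraries lost the Nid2 call (edgeR adjusted p from 0.0759 to 0.16).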

How the results depend on the processing

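With 8 libraries the count of the 35 genes called was 0 in edgeR, 4 in DESeq2 and 6 in voom, and that over all genes 0, 2220 and 3692, or 0 to 2 with each library left out. With 6 libraries the count of the 35 was 2 to 24 with each library left out, where edgeR called 180 to 5982 of all genes, while voom called 6900. In those edgeR fits 24 to 27 of the 35 had an unadjusted p under 0.05, where 4077 to 7530 of all genes had. The cause of these differences was not tested. Of all calls with 6 libraries 54.1% were higher with TMM, 45.4% without a composition factor, 38.4% on log2(FPKM + 1) and 39.3% on log2(FPKM + 0.1), while of the 35 genes 3 were called lower under each of these 4. With 8 libraries the median log2 fold change of all genes was -0.17 without a composition factor, against 0.07 with TMM. The log2 fold change of Foxf1 ranged from -0.29 to 0.065 with each library left out, being 0.065, 0.034, 0.038 and 0.063 without the library labelled knockdown 4 or 5 or WT library 2 or 3, and that of Postn turned to -0.020 in voom. The log2 ratio of Nid1 to Nid2 with 8 libraries differed between the groups by -1.36 to 0.31 with each library left out, with 0.31 without the library labelled knockdown 1. The replicate numbers did not pair the libraries (correlations of deviations -0.03, 0.04 and -0.04), and an edgeR fit with the replicate number as a block called 0 genes, with 2447 at an unadjusted p under 0.05, and moved the median log2 fold change of the 35 genes to -2.16. In that fit the libraries labelled knockdown 4 and 5 have no WT library of the same number. The group difference therefore came from numbers 1 to 3 alone. The 6 libraries share 1 number, so no block was possible there.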

Other observations

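The libraries labelled knockdown 1 and 2 differed from each other in mesenchyme transcripts, although neither came near WT. The library labelled knockdown 2 was the higher one for 26 of the 35 genes, with Dcn at 18.7 FPKM against 2.67 FPKM in that labelled knockdown 1. Col1a1, Col1a2, Col3a1 and Col6a3 summed to 57.1 FPKM in the library labelled knockdown 2 and 6.13 FPKM in that labelled knockdown 1. The smooth muscle markers summed to 312 and 37.2 FPKM there. The small leucine-rich proteoglycans and dermatopontin summed to 35.1 and 5.44 FPKM, whereas Cd44, Thbs1 and Tgfbi were higher in the library labelled knockdown 1 (Cd44 66.1 against 58.4 FPKM, Thbs1 87.2 against 55.0 FPKM and Tgfbi 181 against 143 FPKM). With 1 library of each kind, these differences have no replicate check.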
